A study of Mus musculus with 8 samples.

Results

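The 10 genes described here encode parts of the NF-κB switch and the feedback brakes on cytokine signalling: the NF-κB subunits Nfkb1 and Rela, the IκB family members Nfkbia and Nfkbiz, the ubiquitin-editing regulators Tnfaip3, Tnip1 and Birc3, the suppressors of cytokine signalling Socs1 and Socs3, and annexin A1 (Anxa1). They were taken by gene symbol from a table of 24507 rows, and all 10 were present and passed the filter on low values. RNA sequencing had been carried out on whole stomachs of female wild-type C57BL/6J mice, with 4 samples from animals killed 3 days after adrenalectomy and 4 killed 3 days after sham surgery. Adrenalectomy removes the adrenal glands, which make corticosterone, aldosterone and adrenaline, so its effect cannot be assigned to any single hormone, and the sham operation leaves them in place. The comparison addresses how the stomach transcriptome differs once the adrenal glands are gone. Whether each sample is its own animal is not stated in the labels, and p-values rest on sample-to-sample spread only.

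NF-κB is a family of dimeric transcription factors held inactive in the cytoplasm by IκB proteins. When tumour necrosis factor, interleukin-1 or microbial products reach their receptors, IκBα is phosphorylated and destroyed, the dimer enters the nucleus, and among the first genes it switches on are its own brakes, IκBα (Nfkbia) and A20 (Tnfaip3). SOCS proteins close an equivalent loop on the JAK-STAT pathway. Glucocorticoids, through their receptor, restrain inflammation in part by raising some of these brakes in many cell types, and annexin A1 is a classical glucocorticoid-induced mediator of that kind. In a whole organ these genes are read from epithelium, stroma, muscle and leukocytes at once, and fewer cells of a type cannot be told apart from less RNA per cell.

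RefSeq (build GRCm38.p6) gave promoter windows for 8 of the 10 genes, 9 windows in all. The 250 bases before the annotated start are shown for 3 genes: Nfkbia and Tnfaip3, the textbook NF-κB feedback genes, and Socs1, the gene that passed the test below. Capitals in the first 2 mark matches to the κB consensus on either strand, and capitals in the third mark the overlapping matches to GAAA followed, after any 2 bases, by a second GAAA, a form of the element bound by interferon regulatory factors. The windows lie at chr12:55492648-55492897, minus strand (Nfkbia), chr10:19015411-19015660, minus strand (Tnfaip3), and chr16:10785537-10785786, minus strand (Socs1), each read 5′ to 3′ on the gene's strand.
Nfkbia: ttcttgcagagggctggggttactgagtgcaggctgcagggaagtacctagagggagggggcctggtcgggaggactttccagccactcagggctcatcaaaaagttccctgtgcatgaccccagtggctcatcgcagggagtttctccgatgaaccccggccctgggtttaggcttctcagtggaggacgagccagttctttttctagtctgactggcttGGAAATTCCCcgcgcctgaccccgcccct
Tnfaip3: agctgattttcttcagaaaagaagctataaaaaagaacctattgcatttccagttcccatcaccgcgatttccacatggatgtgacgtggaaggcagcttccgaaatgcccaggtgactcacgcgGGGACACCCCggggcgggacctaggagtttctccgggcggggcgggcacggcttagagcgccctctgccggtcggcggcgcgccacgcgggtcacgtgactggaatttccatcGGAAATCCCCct
Socs1: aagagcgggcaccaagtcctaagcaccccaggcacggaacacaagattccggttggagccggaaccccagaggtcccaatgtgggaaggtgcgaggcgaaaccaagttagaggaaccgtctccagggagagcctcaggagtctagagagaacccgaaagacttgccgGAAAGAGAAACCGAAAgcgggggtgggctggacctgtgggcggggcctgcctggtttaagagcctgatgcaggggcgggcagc
The κB consensus was matched in 3 of the 9 windows, those of Nfkbia, Tnip1 and the Tnfaip3 window shown, and in 7.25% of all 32851 promoter windows of the same length. The Tnip1 matches overlapped one another, and in the Tnfaip3 window 1 stretch matched on both strands. The paired GAAA element was matched in 1 of the 9 windows, that of Socs1, where 2 matches overlapped, and in 2.98% of all windows. The STAT palindrome TTCNNNGAA was matched in 2 of the 9, those of Socs3 and Tnip1, and in 7.02% of all windows. AGAACA, 1 arm of the glucocorticoid receptor palindrome, was matched in 1 of the 9, a second Tnfaip3 window, and in 16.1% of all windows, and the full palindrome, AGAACA and TGTTCT parted by any 3 bases, in none of the 9 and 0.00913% of all. These matches are letters in a window and were not measured for binding.

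The values are the authors' log2 normalized values. Gastric markers were abundant in all samples, at 19.4% to 20.6% of the summed linear values after adrenalectomy and 19.8% to 22.8% after sham. Some samples stood apart in RNA of liver or skeletal muscle, and RNA of squamous epithelium, which lines the forestomach, also varied. The mean log2 value of the 20 liver markers reached 14.18 in adrenalectomy replicate 1. It was 11.45 in adrenalectomy replicate 2, 11.37 in sham replicate 4 and 10.19 in adrenalectomy replicate 3, and 8.95 to 9.07 elsewhere. The 17 skeletal muscle markers averaged 9.84 and 9.83 in sham replicates 2 and 3 and 7.14 to 7.53 in the other samples, and the same 2 samples were highest for the 21 squamous epithelium markers, at 12.75 and 12.79 against 10.42 to 12.03. Sham replicate 1 was the highest of the 8 samples in 4 of the 10 regulators, Nfkbiz, Rela, Tnip1 and Socs3.

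Socs1 rose slightly after adrenalectomy, and the other 9 regulators did not pass the test. With limma and Benjamini-Hochberg adjustment over all tested genes at a threshold of 0.05, 1 of 10 regulators was called, against 1.71% of the 16889 genes tested. Over all tested genes 157 rose (0.93%) and 132 fell (0.782%), and this count of 289 moved to between 27 without sham replicate 3 and 633 without sham replicate 1 when single samples were left out. Of the 10 regulators, 5 had an unadjusted p under 0.05, against 19.2% of all tested genes, and they did not share a direction: Socs1 and Tnfaip3 had higher means after adrenalectomy, and Nfkbia, Birc3 and Anxa1 lower means. The groups did not overlap for 3 regulators, Socs1, Tnfaip3 and Birc3, against 12.4% of all tested genes (6.3% higher and 6.13% lower). The median log2 difference, adrenalectomy minus sham, was 0.0069 over the 10 regulators and -0.00088 over all tested genes.

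**Figure D1:**
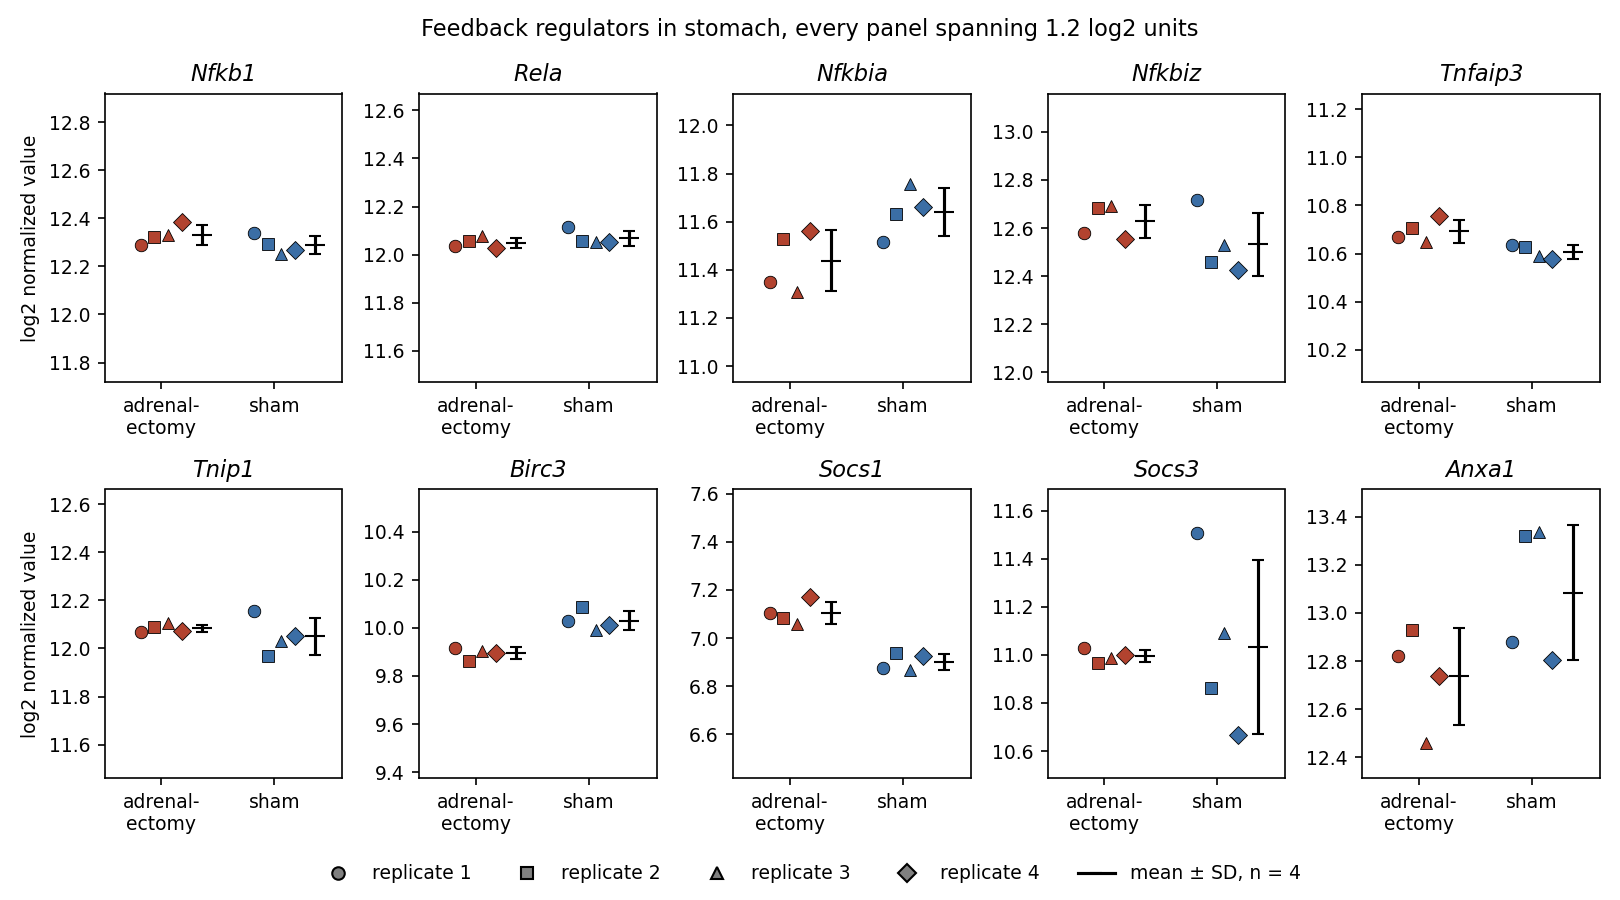
Log2 normalized value of each of the 10 regulators in every sample, adrenalectomy on the left (red) and sham on the right (blue). The marker shape gives the replicate number, which the labels do not say pairs samples, and black bars the mean ± SD of 4 samples. Socs1 lies between 7.06 and 7.17 in the adrenalectomy samples and between 6.87 and 6.94 in the sham samples, and the 4 sham values of Socs3 spread from 10.67 to 11.51.

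The 2 NF-κB subunits varied little between samples. Nfkb1, which encodes the p105 precursor of the p50 subunit, stood at log2 values of 12.29, 12.32, 12.33 and 12.39 after adrenalectomy and 12.34, 12.29, 12.25 and 12.27 after sham. The groups overlapped, with sham replicate 1 above 3 of the adrenalectomy samples. The log2 difference was 0.043 ± 0.029 SE (95% interval -0.024 to 0.11, limma adjusted p = 0.450), and 0.025 to 0.060 with single samples left out. Rela, which encodes the transactivating p65 subunit, stood at 12.04, 12.06, 12.08 and 12.03 after adrenalectomy and 12.11, 12.06, 12.05 and 12.05 after sham. It varied least of the 10 regulators, over 0.088 log2 units in all 8 samples, with a log2 difference of -0.019 ± 0.023 SE (95% interval -0.073 to 0.034, limma adjusted p = 0.675), and -0.028 to -0.0043 with single samples left out.

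Nfkbia, encoding IκBα, the main cytoplasmic inhibitor of NF-κB, had a lower mean after adrenalectomy that did not pass the test. Its log2 values were 11.35, 11.53, 11.31 and 11.56 after adrenalectomy and 11.51, 11.63, 11.76 and 11.66 after sham. Adrenalectomy replicates 2 and 4 lay just above sham replicate 1, and all other adrenalectomy values were below all sham values. The means were 11.44 ± 0.13 after adrenalectomy and 11.64 ± 0.10 after sham (SD, n = 4 each), a log2 difference of -0.20 ± 0.071 SE (95% interval -0.37 to -0.040, limma adjusted p = 0.181). Nfkbia minus Rela within a sample, a log2 difference between the 2 genes' levels, was -0.69, -0.53, -0.77 and -0.46 after adrenalectomy and -0.60, -0.42, -0.29 and -0.39 after sham. The log2 difference of Nfkbia between the groups was -0.12 (limma adjusted p = 0.667) without adrenalectomy replicate 1 and sham replicates 2 and 3. These 3 samples were the highest in liver or muscle RNA, and others with raised liver RNA remained.

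Nfkbiz, encoding the atypical nuclear protein IκBζ, which switches on secondary NF-κB targets rather than blocking the factor, had the opposite sign. It stood at 12.58, 12.68, 12.69 and 12.56 after adrenalectomy and 12.72, 12.46, 12.53 and 12.42 after sham. All adrenalectomy values were above those of sham replicates 2, 3 and 4 and below that of sham replicate 1. The log2 difference was 0.096 ± 0.066 SE (95% interval -0.056 to 0.25, limma adjusted p = 0.459). With single samples left out it lay between 0.060, without sham replicate 4 (limma adjusted p = 0.658), and 0.16, without sham replicate 1 (limma adjusted p = 0.0923). It was 0.035 when adjusted for the combined squamous and muscle marker score (limma adjusted p = 0.874). With the macrophage score as a covariate, whose groups did not overlap, it was 0.29 (limma adjusted p = 0.750). In each of these settings 0 genes passed by limma over all tested genes.

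Tnfaip3 encodes A20, which edits ubiquitin chains on signalling adaptors and ends NF-κB activation. Its values were 10.67, 10.71, 10.65 and 10.75 after adrenalectomy and 10.64, 10.63, 10.59 and 10.58 after sham. All 4 adrenalectomy values were above all 4 sham values, but the gap was narrow. The log2 difference was 0.086 ± 0.032 SE (95% interval 0.012 to 0.16, limma adjusted p = 0.205). Tnip1 encodes ABIN1, a ubiquitin-binding partner of A20, and stood at 12.07, 12.09, 12.10 and 12.07 after adrenalectomy and 12.15, 11.97, 12.03 and 12.05 after sham. The adrenalectomy values lay within the sham range, and the log2 difference was 0.033 ± 0.038 SE (95% interval -0.055 to 0.12, limma adjusted p = 0.659). With single samples left out it lay between 0.0054, without sham replicate 2, and 0.068, without sham replicate 1 (limma adjusted p = 0.948 and 0.176 in that order).

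Birc3 encodes cIAP2, a ubiquitin ligase of the TNF receptor complex that is itself a well known NF-κB target. It stood at 9.92, 9.86, 9.91 and 9.89 after adrenalectomy and 10.03, 10.09, 9.99 and 10.01 after sham. The groups did not overlap and were tight, with means of 9.90 ± 0.023 after adrenalectomy and 10.03 ± 0.041 after sham (SD, n = 4 each). The log2 difference of -0.14 ± 0.032 SE (95% interval -0.21 to -0.061) did not pass (limma adjusted p = 0.0827), and it stayed between -0.15 and -0.12 in 20 alternative settings, with adjusted p-values from 0.0550 to 0.780.

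**Figure D2:**
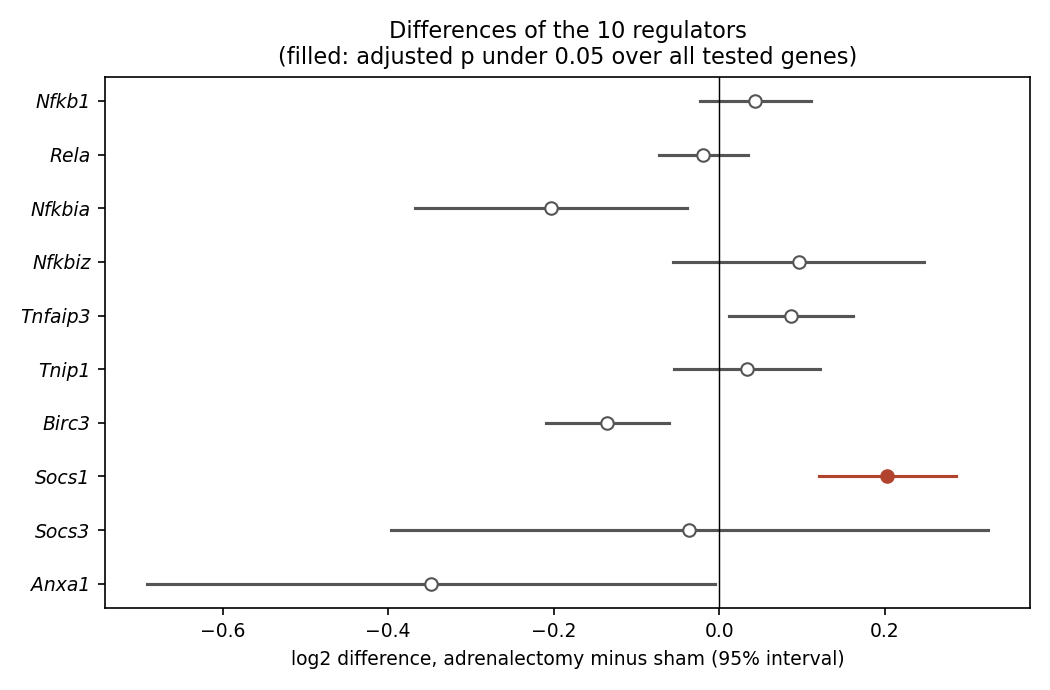
Log2 difference of each regulator, adrenalectomy minus sham (x axis), with its 95% interval from the limma fit, the filled red point marking an adjusted p under 0.05 over all tested genes. Only Socs1 is filled, at 0.20, and the intervals of Anxa1 (-0.69 to -0.0057) and Socs3 (-0.40 to 0.32) are the widest of the 10.

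Socs1, encoding an inhibitor of JAK kinases that interferon-γ induces, was the called gene. It stood at 7.11, 7.08, 7.06 and 7.17 after adrenalectomy and 6.88, 6.94, 6.87 and 6.92 after sham. Every adrenalectomy value was above every sham value. Means were 7.10 ± 0.047 after adrenalectomy and 6.90 ± 0.034 after sham (SD, n = 4 each), a 1.15-fold rise (log2 difference 0.20 ± 0.036 SE, 95% interval 0.12 to 0.29, limma adjusted p = 0.0398). It had the lowest level of the 10 regulators.

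The call of Socs1 was close to the threshold. It held in 6 of 20 alternative settings, while the log2 difference stayed between 0.13 and 0.22. Of the 8 fits with 1 sample left out, it held in the 1 without sham replicate 1 (limma adjusted p = 0.0491). The adjusted p from limma was 0.0928, 0.0843, 0.0880 and 0.0983 without adrenalectomy replicates 1, 2, 3 and 4, and 0.0805, 0.123 and 0.0822 without sham replicates 2, 3 and 4. Recentring each sample on its median also ended the call (log2 difference 0.19, limma adjusted p = 0.0592), as did quantile normalization (0.17, limma adjusted p = 0.180).

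Some macrophage markers rose beside Socs1, and of 24 interferon-γ response genes 1 passed the test, against 1.71% of all tested genes. Of the 24, 23 had higher means and 18 an unadjusted p under 0.05, against 19.2% of all tested genes. Groups did not overlap for 13 of them, all higher, against 6.3% of all tested genes. The mean log2 value of the 24 was 9.93, 9.71, 9.76 and 9.99 after adrenalectomy and 9.50, 9.63, 9.48 and 9.58 after sham. Adrenalectomy replicates 4 and 1 were the 2 highest samples for both Socs1 and this score. Of 18 macrophage and monocyte markers 5 rose, against 0.93% of all tested genes, and none fell. Means were higher for 14 and lower for 4 of these markers, and 14 had an unadjusted p under 0.05. Their groups did not overlap for 11 higher markers and 1 lower, against 6.3% and 6.13% of all tested genes. The 4 adrenalectomy values of Lyve1 lay below its sham values. The summed level of the 18 markers was 0.0205% to 0.0234% of all linear values after adrenalectomy and 0.0170% to 0.0183% after sham. All 18 were above the filter on low values. With the macrophage score as a covariate, whose groups did not overlap, the log2 difference of Socs1 was 0.13 (limma adjusted p = 0.780), and 0 genes passed over all tested genes, with 1122 at an unadjusted p under 0.05. The part of these cells in the Socs1 result was not tested otherwise.

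Socs3, which dampens signalling by interleukin-6 family cytokines through gp130, had very unlike spreads in the groups. It stood at 11.0294, 10.9660, 10.9875 and 10.9999 after adrenalectomy and 11.51, 10.86, 11.09 and 10.67 after sham. The adrenalectomy samples lay within the sham range, and the SD was 0.026 after adrenalectomy and 0.36 after sham, a ratio of 13.7 sham over adrenalectomy. The log2 difference was -0.036 ± 0.16 SE (95% interval -0.40 to 0.32, limma adjusted p = 0.916), -0.16 without sham replicate 4 (limma adjusted p = 0.557) and 0.12 without sham replicate 1 (limma adjusted p = 0.449). Socs1 minus Socs3 within a sample was -3.92, -3.88, -3.93 and -3.83 after adrenalectomy and -4.63, -3.93, -4.22 and -3.74 after sham, so these groups overlapped.

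Anxa1, whose protein limits leukocyte adhesion and phospholipase activity, had the largest difference of the 10 regulators in size, and it did not pass the test after adjustment over all tested genes. It stood at 12.82, 12.93, 12.46 and 12.74 after adrenalectomy and 12.88, 13.32, 13.33 and 12.81 after sham. The 2 highest values were those of sham replicates 2 and 3, and the other sham values lay among those after adrenalectomy. The log2 difference was -0.35 ± 0.15 SE (95% interval -0.69 to -0.0057, unadjusted p = 0.0471, limma adjusted p = 0.254). Anxa1 is abundant in stratified squamous epithelium, which lines the mouse forestomach.

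Squamous markers were read in the same samples. Their mean log2 value was 11.56, 12.03, 10.42 and 11.38 after adrenalectomy and 11.13, 12.75, 12.79 and 11.74 after sham. For both Anxa1 and this score adrenalectomy replicate 3 was the lowest and sham replicate 3 the highest sample. Sham replicate 1 lay below adrenalectomy replicates 1 and 4 for the score and above them for Anxa1. All 21 squamous markers had lower means after adrenalectomy and none was called by limma, with 2 at an unadjusted p under 0.05. Their summed level was 0.0630% to 0.232% of all linear values after adrenalectomy and 0.109% to 0.432% after sham. Adjusted for the combined squamous and muscle marker score, the log2 difference of Anxa1 was -0.060 (limma adjusted p = 0.747). Without the 3 samples highest in liver or muscle RNA it was -0.13 (limma adjusted p = 0.753). In each of these settings 0 genes passed by limma over all tested genes, with 2271 and 1822 at an unadjusted p under 0.05. The part of squamous epithelium in the Anxa1 difference was not tested otherwise. The genes of the annexin A1 receptors Fpr1 and Fpr2 had mean log2 values of 2.88 and 3.21 after adrenalectomy and 2.86 and 3.20 after sham, below the filter on low values.

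**Figure D3:**
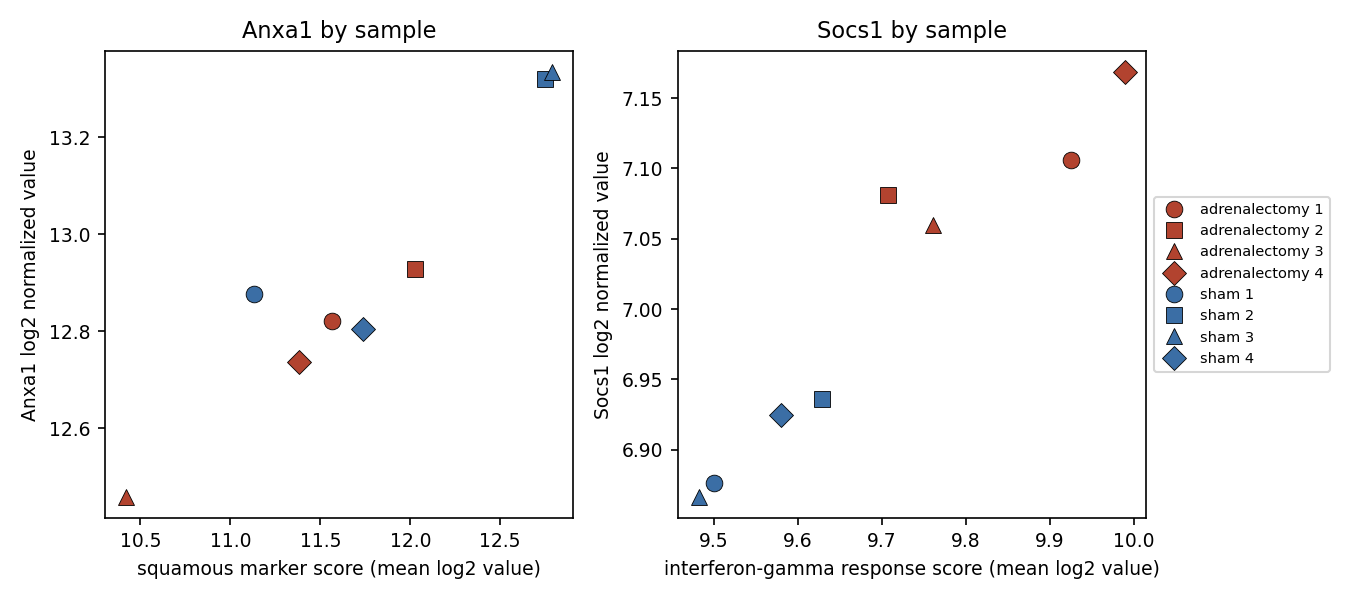
Left, Anxa1 log2 value (y axis) against the mean log2 value of squamous markers (x axis), and right, Socs1 against the mean log2 value of interferon-γ response genes, 1 point per sample, adrenalectomy red and sham blue, with shapes for replicate numbers. Sham replicates 2 and 3 hold the top right corner on the left, at Anxa1 values of 13.32 and 13.33, and the adrenalectomy samples lie above and to the right of the sham samples on the right.

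Levels per transcript length ordered the regulators the same way in both groups. Dividing by the union of annotated exons (GENCODE M21), the mean log2 value per kilobase of Anxa1 was the highest of the 10 regulators, at 11.82 after adrenalectomy and 12.16 after sham. Nfkbia followed at 10.78 after adrenalectomy and 10.98 after sham, then Rela at 10.61 after adrenalectomy and 10.63 after sham. Nfkbiz, at 10.58 after adrenalectomy and 10.48 after sham, and Tnip1, at 10.48 after adrenalectomy and 10.45 after sham, differed in sham samples by less than their SD of 0.13 and 0.078. Nfkb1 and Socs3 came next, then Tnfaip3 at 8.49 after adrenalectomy and 8.41 after sham and Birc3 at 7.81 after adrenalectomy and 7.95 after sham. Socs1 was lowest, at 5.56 after adrenalectomy and 5.36 after sham. None of the 10 shares exon bases with another gene in that annotation.

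The wider NF-κB machinery is set beside all tested genes, of which 1.71% were called and 19.2% had an unadjusted p under 0.05. The remaining subunits and IκB proteins had 0 of 8 members called by limma, with 3 at an unadjusted p under 0.05 and a median log2 difference of 0.075. Bcl3, a nuclear IκB protein that partners p50 and p52, stood at 10.54, 10.34, 10.59 and 10.37 after adrenalectomy and 10.24, 10.09, 10.12 and 9.92 after sham. Its groups did not overlap, and the log2 difference of 0.36 ± 0.080 SE missed the threshold (limma adjusted p = 0.0658). The IκB-like gene Nfkbil1 differed by 0.12 (limma adjusted p = 0.175).

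Of the IκB kinases and upstream kinases 0 of 10 were called by limma, with 3 at an unadjusted p under 0.05 and a median of -0.013. Map3k14, encoding the kinase NIK of the non-canonical pathway, differed by 0.22 (limma adjusted p = 0.134), and Tab2, an adaptor of the kinase TAK1, by -0.067 (limma adjusted p = 0.173). Receptors and adaptors had 0 of 25 called by limma, with 4 at an unadjusted p under 0.05 and a median of 0.029. The bacterial lipoprotein receptor gene Tlr2 differed by 0.22 (limma adjusted p = 0.108) and the lymphotoxin receptor gene Ltbr by 0.086 (limma adjusted p = 0.190). Of the other ubiquitin editors and brakes 0 of 21 were called by limma, with 6 at an unadjusted p under 0.05 and a median of -0.014. Xiap, an inhibitor of apoptosis related to Birc3, differed by -0.098 (limma adjusted p = 0.0667), and Irak3, a kinase-like protein that blocks Toll-like receptor signalling, by -0.17 (limma adjusted p = 0.0949).

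Among NF-κB target genes, 2 of 25 tested fell, none rose, and 17 had higher means in the adrenalectomy group (median log2 difference 0.090). Over all tested genes 0.782% fell. An unadjusted p under 0.05 was seen for 14 of the 25, in both directions, against 19.2% of all tested genes. Bcl2l1, encoding the survival protein BCL-xL, stood at 12.03, 12.09, 12.13 and 12.08 after adrenalectomy and 12.27, 12.22, 12.28 and 12.26 after sham (log2 difference -0.17 ± 0.028 SE, limma adjusted p = 0.0317). Cebpd, an acute-phase transcription factor gene that glucocorticoids induce, stood at 9.31, 9.51, 9.32 and 9.49 after adrenalectomy and 9.85, 9.79, 9.98 and 9.72 after sham (log2 difference -0.43 ± 0.071 SE, limma adjusted p = 0.0361). Groups did not overlap for 7 target genes that were higher and 3 that were lower, against 6.3% and 6.13% of all tested genes. Icam1, a leukocyte adhesion molecule outside the rule for named genes and chosen after its values were seen, differed by 0.21 ± 0.051 SE (limma adjusted p = 0.0827). Another 5 target genes, Il6, Ccl20, Cxcl2, Sele and Csf2, were below the filter on low values.

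**Figure D4:**
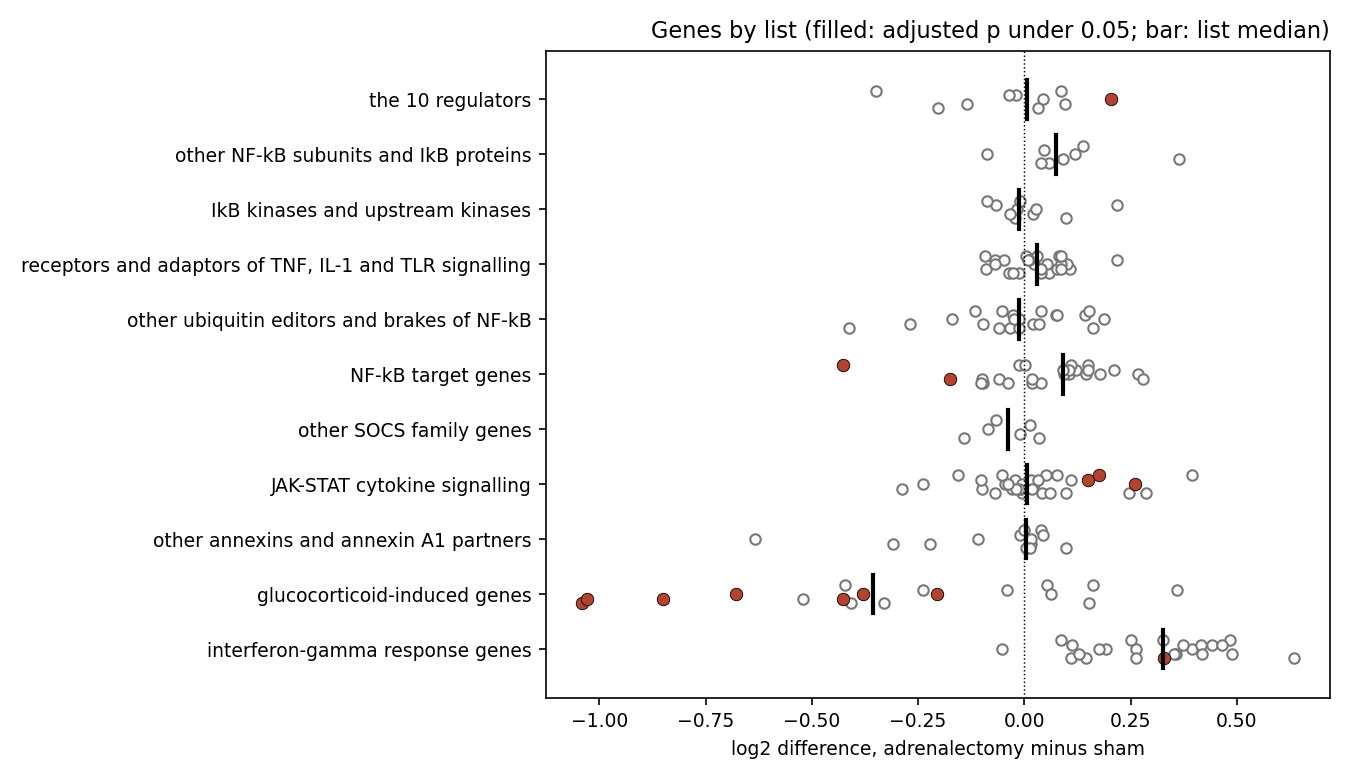
Log2 difference, adrenalectomy minus sham (x axis), of every tested gene in the 10 regulators and in 10 related lists (rows), 1 point per gene, filled red where the adjusted p was under 0.05, with a black bar at the list median. The medians of the NF-κB lists lie between -0.014 and 0.090, those of the glucocorticoid-induced and interferon-γ response genes at -0.36 and 0.33.

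Socs1 was the called gene of its family. Of the 6 other SOCS genes 0 were called by limma, against 1.71% of all tested genes, with 2 at an unadjusted p under 0.05 and a median of -0.039. Socs7 stood at 11.76, 11.76, 11.75 and 11.71 after adrenalectomy and 11.83, 11.88, 11.96 and 11.88 after sham, below sham in all samples (log2 difference -0.14, limma adjusted p = 0.0611), and Socs6 differed by -0.068 (limma adjusted p = 0.254). In JAK-STAT signalling 3 of 32 genes rose, against 0.93% of all tested genes, and none fell, with a median of 0.0054. Stat5a, a transcription factor activated by growth hormone and common γ-chain cytokines, rose by 0.15 ± 0.026 SE (limma adjusted p = 0.0385). Il2rg, the common γ-chain itself, rose by 0.26 ± 0.045 SE (limma adjusted p = 0.0394), and Ptpn2, a tyrosine phosphatase that dampens cytokine receptor signalling, by 0.18 ± 0.034 SE (limma adjusted p = 0.0483).

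Il2rg is a leukocyte gene, and it stood at 7.80, 7.90, 7.87 and 7.95 after adrenalectomy and 7.65, 7.58, 7.57 and 7.67 after sham. The summed level of T and NK cell markers was 0.000869% to 0.000907% of all linear values after adrenalectomy and 0.000856% to 0.000891% after sham, with 8 of 16 members above the filter and Cd3d, Cd3e and Cd3g below it. The summed level of B and plasma cell markers was 0.000272% to 0.000344% after adrenalectomy and 0.000243% to 0.000257% after sham, with 6 of 11 members above the filter, 0 called by limma and 5 at an unadjusted p under 0.05. The groups did not overlap in this summed level, nor in that of the macrophage markers given with Socs1. With the macrophage score as a covariate the log2 difference of Il2rg was 0.26 (limma adjusted p = 0.750). The part of leukocytes in the rise of Il2rg was not tested otherwise. When single samples were left out, Bcl2l1, Cebpd, Stat5a, Il2rg and Ptpn2 each kept their call without sham replicate 1 and lost it in the other 7 fits, with adjusted p-values up to 0.112, 0.105, 0.112, 0.122 and 0.134 in that order.

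The other annexins and annexin A1 partners had 0 of 13 tested members called by limma, 0 at an unadjusted p under 0.05 and a median of 0.0048. Anxa9 stood at 8.89, 9.31, 8.33 and 8.56 after adrenalectomy and 8.61, 9.89, 9.98 and 9.14 after sham. Sham replicates 2 and 3 were again the highest, as for Anxa1, and the log2 difference was -0.63 (limma adjusted p = 0.341). It was 0.026 when adjusted for the combined squamous and muscle marker score, and the part of squamous epithelium in it was not tested otherwise. S100a10, the partner of annexin A2, differed by -0.31 (limma adjusted p = 0.402).

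Beside these, 7 of 18 glucocorticoid-induced genes fell, against 0.782% of all tested genes, and none rose, with a median log2 difference of -0.36, which gives the size of change of known steroid targets in the same samples. Per1 differed by -1.04, Pdk4 by -0.85, Klf9 by -0.68 and Fam107a by -0.38, the 4 of smallest p, and the 7 that fell reached from -1.04 to -0.21. Of the 18, 13 had lower and 5 higher means. Their groups did not overlap for 11 lower and 2 higher genes, against 6.13% and 6.3% of all tested genes. Of the 10 regulators, 5 had lower and 5 higher means. Lower and uncalled were Nfkbia at -0.20, Birc3 at -0.14 and Anxa1 at -0.35, among others. Higher were Socs1 at 0.20, which was called, and Nfkbiz at 0.096 and Tnfaip3 at 0.086, uncalled, among others. Fam107a lost its call without adrenalectomy replicate 2 or sham replicate 3, with adjusted p-values up to 0.0528. Of 24 interferon-γ response genes 1 rose, Ciita (0.33, limma adjusted p = 0.0150), against 0.93% of all tested genes, and none fell. Of the 24, 23 had higher means and 18 an unadjusted p under 0.05, against 19.2% of all tested genes. Ciita lost its call without sham replicate 3 (limma adjusted p = 0.0678).

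**Figure D5:**
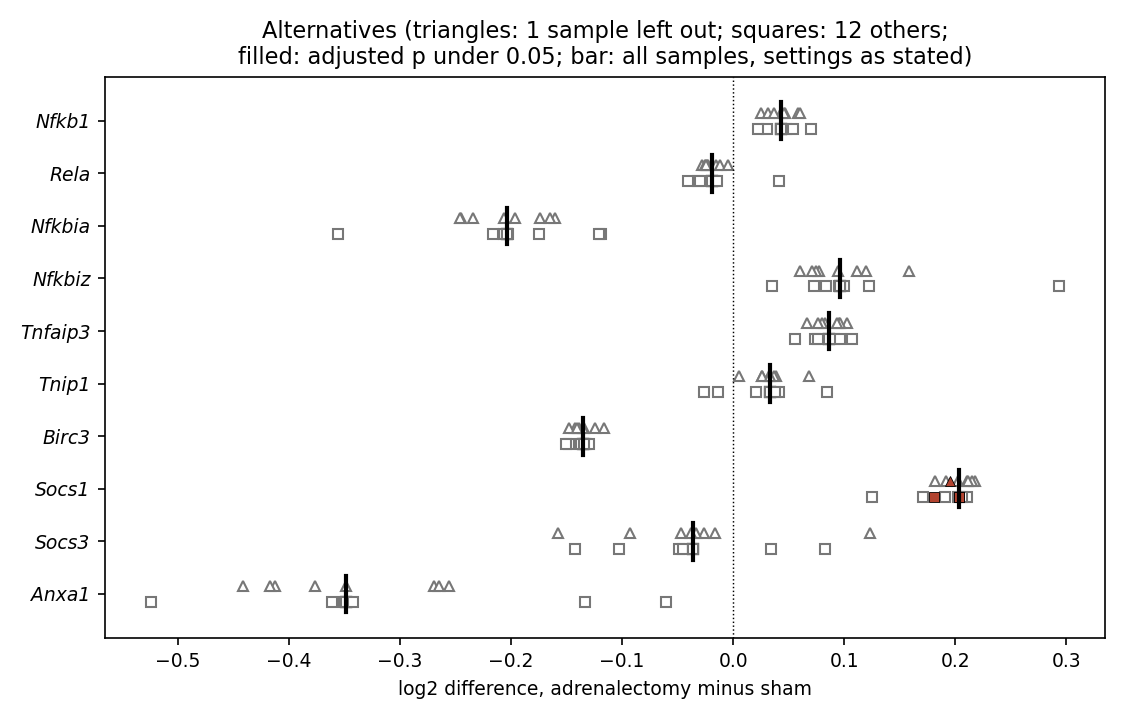
Log2 difference of each regulator, adrenalectomy minus sham (x axis), under 20 alternative settings, triangles for 8 fits without 1 sample and squares for 12 other settings, filled red where the adjusted p was under 0.05, with a black bar at the value from all samples. Socs1 stays between 0.13 and 0.22 with 6 filled symbols, Anxa1 runs from -0.52 to -0.060, and Socs3, Tnip1 and Rela cross 0.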

How the data were processed

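RNA sequencing values of 8 stomach samples were used, 4 per group. The submitters' processing notes name build mm9 and the tools STAR, Trim Galore, DESeq2 and featureCounts, with no version. The authors deposited 1 table of log2 normalized values per gene. Its transformation, annotation and strand setting were not given in the sources used here. Median SD within groups was 0.035 up to a mean log2 value of 6, 0.071 between 6 and 8, 0.081 between 8 and 10, 0.060 between 10 and 12 and 0.052 above 12. The spread was thus smallest for the lowest genes, and the folds and levels per kilobase given here are on this scale. Whether it compresses differences of low genes was not tested. The table holds no counts and depth is unknown. Another 8 columns with other sample names were not used, and 26 rows with dates for names were left out.

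Genes with a mean linear value of at least 10 over the 8 samples were tested (16889) in R 4.3.3 by limma 3.58.1 with an intensity-dependent prior variance (trend), group as the only term, two-sided p-values and Benjamini-Hochberg adjustment over all tested genes. Intervals are 95% intervals of that fit. The 10 genes and all lists were chosen with earlier results of these data known. All 10 are named, with up to 4 called genes of each related list or, with none called, the 2 of smallest p. The code was tested on simulated data. No samples held identical values for any tested gene. Promoters are RefSeq's (GRCm38.p6), not on the authors' build, searched on both strands.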

Additional observations from a re-analysis of the deposited data

Results flagged for a closer look

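In 108 groups of 4 samples (54 named genes, both groups), 3 held a sample far from the other 3 by Dixon's criterion, which chance alone gives in about 1 of 20 groups. Among the 10 regulators this was Rela, at 12.11 in sham replicate 1 and 12.05 to 12.06 in the other sham samples. Outside them it was the liver genes Alb, at 14.16 in sham replicate 4 and 8.79 to 9.06 in the other sham samples, and Ahsg, at 11.18 in sham replicate 4 and 8.31 to 8.46 in the others.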

How the results depend on the processing

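Of 20 alternative settings, the count of called genes (289) moved by over 1.5 times in the following. It was 170 without a filter, 156 with median centring, 4 with the replicate block and 121 with a liver covariate. It was 0 by limma with the squamous and skeletal muscle covariate, the macrophage covariate, or without the 3 samples highest in liver or muscle RNA. In these last settings 2271, 1122 and 1822 genes had an unadjusted p under 0.05, in that order. Median centring moved the share of higher calls to 69 of 156, against 157 of 289. Leaving out single samples gave 27 to 633 genes. The count of called regulators, 1, was 0 by limma with median centring, quantile normalization, the replicate block, each of the 3 covariates and without those 3 samples, and 0 to 1 with single samples left out. With the replicate block Socs1 kept its log2 difference of 0.20 (adjusted p = 0.143). The labels do not say that replicate numbers pair the samples. Deviations from the group means correlated at -0.29, 0.45, -0.12 and -0.63 for numbers 1 to 4, and at -0.46 to 0.63 for unlike numbers. With 4 samples per group these values cannot settle whether samples were paired. Signs turned, with no call in either setting, for Rela (0.041, macrophage covariate), Tnip1 (-0.026, squamous and skeletal muscle covariate; -0.014, without the 3 samples), Socs3 (0.034, liver covariate; 0.083, macrophage covariate; 0.12, without sham replicate 1, in a range of -0.16 to 0.12 with single samples left out) and Anxa9 (0.026, squamous and skeletal muscle covariate). The other 7 regulators kept their sign in all 20. Why calls were lost was not tested, and the fits that left some samples out also held fewer samples.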
